A study of Mus musculus with 6 samples.

Results

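Il17a, Il23r, Ccr6 and Il1r1, 4 of the 32285 genes in the expression matrices, are genes of type 17 T cells, and they were described in T cells of a mouse glioma at 2 time points. Mice were wild-type C57BL/6J animals aged 6 to 8 weeks that carried intracranial CT2A tumors, a mouse glioma line. CD3+ cells were sorted from the tumors at day 13 (early) or day 19 (late), and the series text narrows the sort to CD4+ or CD8+ cells. The labels name no treatment. Of 16 mice at day 13, 4 went into each pooled replicate, and day 19 had 4 mice. Gene expression, 138 antibody tags and T cell receptor (TCR) sequences were read from 1 droplet capture per day with 10x Genomics 5' chemistry, and GEO lists 1 sample of each library type a day. Each matrix also holds counts of 4 multiplexing tags, which no label maps to replicates or mice. Cells were therefore not assigned to replicates, each day is treated as 1 sample, no test across samples was made, and day and capture cannot be told apart.

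A T cell here was a barcode with at least 2000 gene UMIs (unique molecular identifiers, each marking 1 captured molecule), at most 10% mitochondrial UMIs and at least 1 UMI of Cd3d, Cd3e or Cd3g. This gave 12541 T cells at day 13 and 5609 at day 19, with 6116 and 8791 UMIs in the median cell. At least 1 of the 4 genes was detected in 638 and 472 of them. The 4 genes were chosen by their UMIs in these same T cells, and the UMI, mitochondrial and CD3 thresholds with results in view, so the levels below are a description. Barcodes just under the threshold, with at least 1000 but under 2000 UMIs, numbered 390 and 121. Among them Il17a was found in 1 and 0, Il23r in 0 and 2, Ccr6 in 2 and 3, and Il1r1 in 0 and 0.

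Type 17 T cells make the cytokine interleukin-17A, the product of Il17a. IL-1 and IL-23 from myeloid cells act on them through the receptors encoded by Il1r1 and Il23r. Ccr6 encodes the receptor of the chemokine CCL20 and guides cells to inflamed tissue. CD4 T helper cells, gamma-delta T cells and smaller innate-like subsets can all take on this state. Some Foxp3+ regulatory T cells also carry Ccr6, as B cells and dendritic cells can carry Ccr6.

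Per RefSeq coordinates of GRCm38.p6, the assembly known as mm10, Il17a (ENSMUSG00000025929) lies on chromosome 1 from 20730905 to 20734496. Il1r1 (ENSMUSG00000026072) lies on chromosome 1 from 40222480 to 40316201. Il23r (ENSMUSG00000049093) lies on chromosome 6 from 67422932 to 67491855, and Ccr6 (ENSMUSG00000040899) on chromosome 17 from 8236041 to 8258519. All 4 are protein-coding. AGGTCA is the core of the sites that many nuclear receptors bind, among them the product of Rora, a gene of the regulator list used below. The 250 bases before the start sites were searched for AGGTCA on both strands, where the other strand reads TGACCT. The 3 genes with a match are shown 5′ to 3′ on the gene's strand from RefSeq (GRCm38.p6), with matches in capitals.
Il17a promoter, chr1:20730655-20730904, plus strand: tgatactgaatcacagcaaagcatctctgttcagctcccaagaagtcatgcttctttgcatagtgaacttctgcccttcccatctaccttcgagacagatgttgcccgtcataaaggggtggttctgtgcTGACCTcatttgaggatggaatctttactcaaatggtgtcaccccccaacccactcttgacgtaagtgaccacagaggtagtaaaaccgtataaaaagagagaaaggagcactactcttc
Il23r promoter, chr6:67491856-67492105, minus strand: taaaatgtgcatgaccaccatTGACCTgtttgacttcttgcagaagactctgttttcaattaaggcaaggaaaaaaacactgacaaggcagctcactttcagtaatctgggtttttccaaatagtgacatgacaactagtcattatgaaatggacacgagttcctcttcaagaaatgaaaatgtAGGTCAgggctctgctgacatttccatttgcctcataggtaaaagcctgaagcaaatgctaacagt
Ccr6 promoter, chr17:8235793-8236042, plus strand: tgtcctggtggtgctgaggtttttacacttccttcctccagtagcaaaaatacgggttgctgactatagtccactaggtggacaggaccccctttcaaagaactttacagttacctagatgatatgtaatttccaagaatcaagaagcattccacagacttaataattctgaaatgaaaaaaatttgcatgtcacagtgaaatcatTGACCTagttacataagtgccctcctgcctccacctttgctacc
The match lay 120 bases before the start of Il17a, 229 and 66 before that of Il23r, and 44 before the first start of Ccr6. A second Ccr6 start and the Il1r1 starts in the RefSeq promoter table had no match in this window. Those Il1r1 starts lie inside the gene's span given above, so the bases before the first base of that span were not searched. Of 32851 promoter windows of this length in the table, 14.0% held the 6 letters, so a match by itself is common, and no binding was measured here.

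Il17a was detected in 68 of 12541 T cells at day 13 (0.542%, 95% interval 0.421 to 0.687) and in 11 of 5609 at day 19 (0.196%, 0.0979 to 0.351). These intervals, like all intervals of shares here, are exact binomial (Clopper-Pearson) and cover counting error only. Thinned to 2000 UMIs in every cell, the counts were 40 cells (0.319%) and 6 cells (0.107%). Among barcodes of the same depth filter without a CD3 UMI, 0 of 1234 and 0 of 487 had Il17a, which allows up to 0.243% and 0.616%. Here and below, the share a count of 0 allows is 3 counts over the number of cells, not the bound of an exact interval. At day 19 this limit is above the share in T cells, so barcodes without CD3 are too few there to set a background below it.

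Summed over T cells, Il17a stood at 4.26 UMIs per 1000000 gene UMIs (CPM; exact Poisson interval 3.91 to 4.64) at day 13 and at 0.937 CPM (0.729 to 1.19) at day 19. The log2 ratio of day 19 over day 13 was -2.19 (exact interval for 2 Poisson counts, -2.57 to -1.82). Poisson intervals here treat UMIs as independent and leave out their clumping within cells. Il17a UMIs lay in 68 and 11 cells, with up to 91 and 27 in 1 cell, so these intervals are too narrow. Counting error of sums and ratios means this interval only. TCR contigs of each day came in 4 tables without a shared barcode, called contig sets here. In each set the multiplexing tag of the same number was the highest in most T cells, in 99.0% to 100% of them in the day-13 sets and 82.4% to 94.2% in the day-19 sets. The sets thus follow the tags, but no label says which replicate or mouse a set is, so they are given as the spread within a capture and not as samples. Il17a stood at 2.34, 2.72, 4.65 and 12.3 CPM in the day-13 sets and at 0, 0, 0.457 and 1.07 CPM in the day-19 sets. Every day-19 set lay below every day-13 set.

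The day difference was not the same size in all droplets. Inside the contig sets the log2 ratio was -3.98 (-4.75 to -3.30), and outside them it was -0.48 (-0.97 to -0.02). Of the 51 Il17a UMIs outside them at day 19, 27 lay in 1 barcode. CD4 cells had Cd4 and neither Cd8a nor Cd8b1 UMIs, CD8 cells the reverse. Il17a went from 8.62 to 0.574 CPM in CD4 cells (-3.91, -5.06 to -2.96) and from 3.67 to 0.231 CPM in CD8 cells (-3.99, -5.32 to -2.92). In T cells with UMIs of neither coreceptor it went from 5.24 to 0.783 CPM (-2.74, -4.40 to -1.46). Within CD4 cells the contig sets of the days overlapped, at 0 to 37.1 CPM at day 13 and 0 to 4.07 CPM at day 19. In barcodes with UMIs of both coreceptors, 1.71 and 2.26 CPM did not differ beyond counting error (0.40, -0.19 to 0.99). The barcode of 27 Il17a UMIs at day 19 is among these too. Neither this ratio nor that outside the contig sets was taken again without it, so no direction is read for barcodes with both.

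A few cells carried much of the CD4 sum. Macrophage RNA was frequent in these libraries: 34.6% and 52.8% of T cells had a UMI of C1qa, C1qb or C1qc. In CD4 cells without C1q the day difference in Il17a was -0.39 (-1.64 to 0.71), from 3.01 to 2.30 CPM, which is within counting error. This filter leaves out the pair of CD4 cells with the most Il17a UMIs at day 13, which held 91 and 41 of the 199 Il17a UMIs of CD4 cells and 1 C1q UMI each. Without only these 2 cells the CD4 day difference was -2.34 (-3.53 to -1.33). In CD8 cells without C1q it remained at -3.57, and in all T cells without C1q at -2.65 (-3.45 to -1.95). Without barcodes that had a UMI of any B or plasma cell marker, the ratio over all T cells was -1.52.

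**Figure D1:**
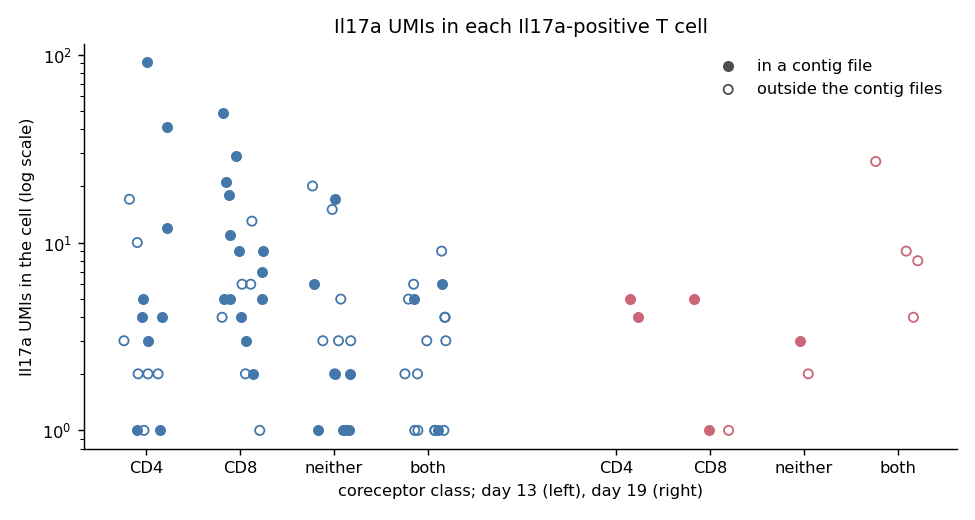
Il17a UMIs (log axis) in each Il17a-positive T cell, by coreceptor class, with all classes of day 13 in the left part and all classes of day 19 in the right part. Each point is 1 cell, filled if it was in a contig file and open if it was not. Most cells sit at a few UMIs and single cells reach 91 at day 13 and 27 at day 19.

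Il17a came from rare cells with several transcripts each. The median positive cell held 4 Il17a UMIs on both days, and the highest held 91 at day 13 and 27 at day 19. The 5 highest cells gave 231 of 545 UMIs at day 13 (42.4%) and 54 of 69 at day 19 (78.3%). At least 2 UMIs were present in 54 of 68 and 9 of 11 positive cells. Positive cells were deeper than other T cells, with medians of 8185 against 6108 gene UMIs at day 13 and 10500 against 8788.5 at day 19. This depth bears on the shares of Il17a-positive cells with a UMI of another gene below.

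All coreceptor classes held Il17a-positive cells. At day 13 they made up 16 of 2907 CD4 cells (0.550%), 20 of 5848 CD8 cells (0.342%), 15 of 2490 with neither coreceptor (0.602%) and 17 of 1296 with both (1.31%). The level in CD4 over CD8 cells was 1.23 (0.94 to 1.52) on the log2 scale at day 13. Without C1q-positive barcodes it was -0.73 (-1.33 to -0.18), so the order of CD4 and CD8 cells reversed. Without only the 2 CD4 cells of 91 and 41 UMIs it was -0.34 (-0.76 to 0.06), within counting error, so the order at day 13 rests on those cells. At day 19 the counts were 2 of 1385, 3 of 2608, 2 of 890 and 4 of 726, too few to order the classes.

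**Figure D2:**
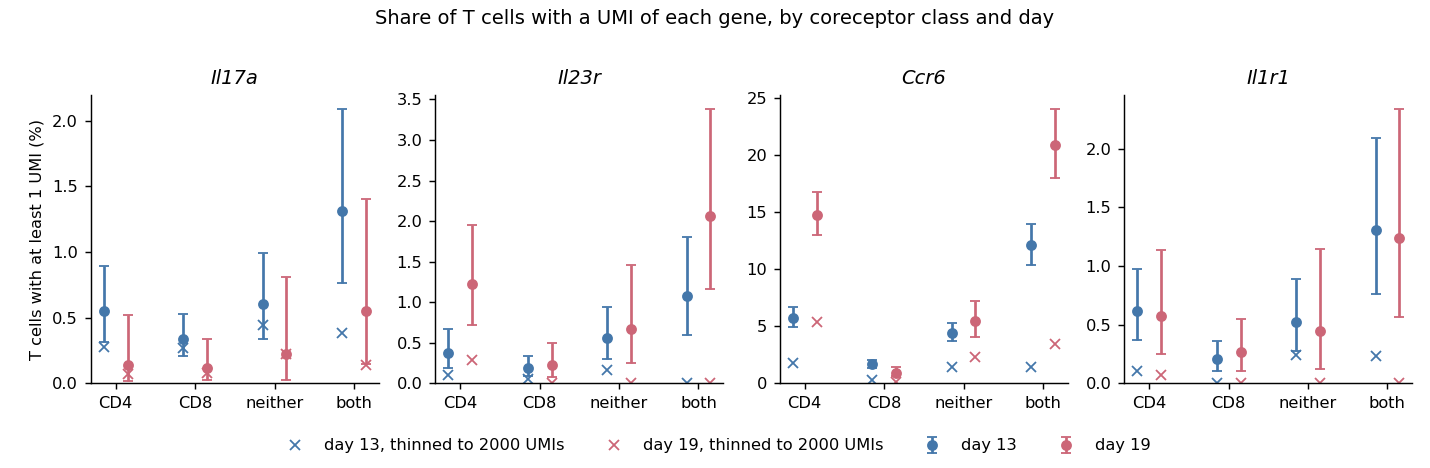
Percent of T cells with at least 1 UMI of each gene, by coreceptor class (CD4, CD8, neither, both) and day; bars are exact binomial 95% intervals. Each panel has its own scale from 0. The Il17a share is lower at day 19 in each class, with intervals that overlap between the days, while Ccr6 is higher at day 19 in CD4 cells, at 14.8% against 5.78%.

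Other genes of the type 17 state were more frequent at day 13 in cells with Il17a, although most of these cells lacked each gene given here. Il17f, the closest relative of Il17a, was present in 8 of 68 (11.8%) against 0.0722% and in 1 of 11. The other 3 genes were also more frequent in Il17a-positive cells of day 13 than in negative ones. Ccr6 was found in 28 of 68 (41.2% against 4.07%), Il23r in 10 of 68 (14.7% against 0.321%) and Il1r1 in 9 of 68 (13.2% against 0.409%). At day 19, 3, 2 and 1 of the 11 cells had them.

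Gamma-delta receptor RNA was found in a minority of Il17a-positive cells. The labels describe a CD3+ sort and the series text a sort of CD4+ or CD8+ cells, and the latter would leave out gamma-delta T cells without a coreceptor, so these shares depend on the gate used. Trdc, the delta constant gene, was found in 4 of 68 at day 13 (5.88%, 1.63 to 14.4; negative cells 1.47%) and in 0 of 11 at day 19. Read the other way, Il17a was present in 4 of 187 Trdc-positive cells at day 13 (2.14%) and in 0 of 83 at day 19, which allows 3.61%. Tcrg-C1, a gamma constant gene that shares sequence with its copies, was found in 17 of 68 (25.0%) against 2.40% of negative cells at day 13, and in 0 of 11 at day 19. Trac, the alpha constant gene, was present in 51 of 68 and 8 of 11.

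Foxp3 was found in 13 of 68 Il17a-positive cells (19.1%) against 14.9% of negative cells at day 13, and in 4 of 11 at day 19. TCR contigs were less frequent than in other T cells at day 13, at 33 of 68 (48.5%, 36.2 to 61.0) against 65.4%. At day 19 they were found for 5 of 11 (45.5%, 16.7 to 76.6) against 75.8%, and for 4 of 5 (80.0%) without C1q-positive barcodes, so no direction is read there. The day-13 positive cells inside and outside the contig files differed in depth, with medians of 5839 and 16305 gene UMIs. Negative cells had medians of 5401 and 10503. Tcrg-C1 was found in 7 of 33 inside (21.2%; negative cells 2.01%) and in 10 of 35 outside (28.6%; 3.13%). Trdc without Trac was found in 0 of 33 and 0 of 35 of them. Tcrg-C1 without Trac was found in 3 of 33 inside (9.09%; negative cells 0.65%) and in 2 of 35 outside (5.71%; 0.60%). RNA of other cells was also present: 41.2% had C1q UMIs against 34.6%, and 32.4% had B or plasma cell marker UMIs against 8.94%. The part of these in the result was not tested beyond the values without C1q and without B or plasma cell barcodes above.

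Gene lists of the pathway were compared between Il17a-positive and Il17a-negative T cells by summed CPM. A gene counted as higher or lower when it differed at least 2-fold and had at least 50 UMIs over both sums, whether or not its interval reached 0. Named genes whose interval did are given with it or as within counting error. Of all 13278 genes at day 13, 3.89% were higher and 2.43% lower, and of 12512 genes at day 19, 4.12% were higher and 2.51% lower. The median log2 ratio of all genes was 0.12 at day 13 and 0.36 at day 19. Against this background, 4 of 11 type 17 regulators were higher at day 13. Among them were Blk (4.48), a kinase of interleukin-17-making gamma-delta T cells, Zbtb16 (2.73), the transcription factor of innate-like T cells, and Rora (1.32), a nuclear receptor. Blk is also a kinase of B cells, and it rests on 14 UMIs in Il17a-positive cells. Without barcodes with B or plasma cell marker UMIs it was at 8.48 (6.79 to 10.4), from 10 UMIs against 5. At day 19, Zbtb16 (3.99), Rora (1.40) and Irf4 (1.17) of 9 were higher.

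Genes reported in interleukin-17-making gamma-delta T cells formed the list with the most genes higher, 9 of 10 at day 13 and 7 of 10 at day 19, of which Ltb4r1 at day 19 (1.16, -0.29 to 2.28) was within counting error. Aqp3, a water and glycerol channel, stood at 2.95 and 4.01 on the log2 scale, and Serpinb1a, a protease inhibitor, at 2.92 and 3.15. Ltb4r1, a leukotriene B4 receptor, stood at 2.59 at day 13, and Tmem176a and Tmem176b, which encode membrane proteins, at 1.88 and 1.81. The gamma and delta receptor genes themselves were mixed at day 13, with 6 higher and 4 lower of 13, and Trdv5 among the 6 was within counting error. Tcrg-C1 (2.32) and Tcrg-V4 (1.93) were higher. Trdv1 (-1.99, -5.04 to -0.13) and Tcrg-C4 (-2.22, -5.27 to -0.36) were lower, each from 2 UMIs in the positive cells. At day 19, 0 of 10 were higher. A call needs at least 3 UMIs in the positive cells, which were few then. Trdc and Tcrg-C1 had 0 UMIs in them and stood at 2.72 and 4.49 CPM in negative cells. The count at day 19 thus cannot tell a lower level from too few UMIs.

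Among inducing receptors, Il23r (4.81) and Il1r1 (4.64) of 12 were higher in Il17a-positive cells at day 13. Of 10 homing genes, Ccr6 (3.17), Ccr4 (2.00) and Itgae (1.08), an integrin of tissue-resident cells, were higher. Ccr4 and Itgae were also higher at day 19, at 3.25 and 1.83. The Ccr4 value of day 19 rests on 20 UMIs in 5 of 11 cells, 11 of these UMIs in 1 cell. Ifng, the type 1 cytokine, was lower on both days, at -1.78 and -1.18. Areg, a tissue repair factor, was lower at day 13 (-1.28) and higher at day 19 (1.45). Of 10 regulatory T cell genes, 0 were higher at day 13.

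**Figure D3:**
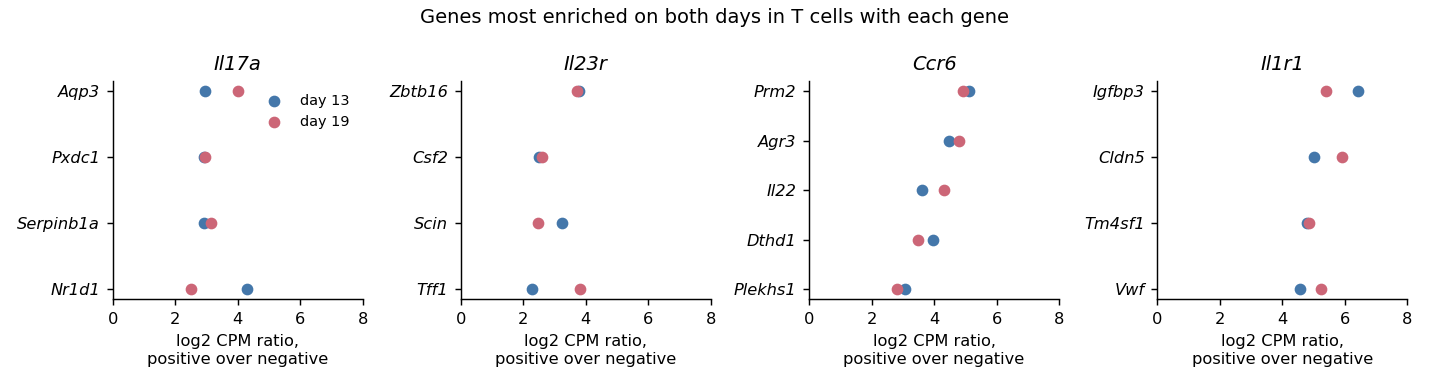
Log2 CPM ratio of T cells with over T cells without each of the 4 genes, for the genes named in the text among the 5 whose smaller ratio of the 2 days was largest; points are day 13 and day 19. Aqp3, at 2.95 and 4.01, is the highest-ranked gene shown for Il17a, and Prm2, at 5.13 and 4.91, for Ccr6.

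By the likeness measure, the smaller of the 2 days' log2 ratios between positive and negative T cells among 5149 genes, Aqp3, Pxdc1 (2.92 and 2.95), Serpinb1a and Nr1d1 were among the 5 that ranked highest for Il17a. Nr1d1, a nuclear receptor of the circadian clock, stood at 4.29 and 2.52, the latter from 1 of 11 cells.

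Receptor sequences were available for part of the Il17a-positive cells. At day 13, 20 Il17a-positive cells had exactly 1 alpha and 1 beta chain, and they fell into 19 clones, a clone being cells of a contig set with the same bases in complementarity-determining region 3 (CDR3) of the alpha and of the beta chain. Of these cells, 5 (25.0%, 8.66 to 49.1) were in clones of at least 2 cells, against 24.3% of negative cells. At day 19, 3 of 4 were, against 36.9%. One pair of cells shared a clone in which both had Il17a: TRAV16N TRAJ26 with TRBV3 TRBJ2-1 in day-13 set 3, CD8 cells with 54 Il17a UMIs in all. TRAV16 and TRAV16N are near-identical copies, so which of them was used is uncertain.

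The 3 largest clones with an Il17a-positive cell had 9, 4 and 3 cells. The clone of 9 (TRAV13-1 TRAJ17, TRBV29 TRBJ1-3, day-13 set 4) had 1 positive cell with 1 UMI. The other clones, from day 19 and day 13, both joined TRAV16 to TRAJ38 and paired it with TRBV16. This combination was then looked up in all T cells, a search made after its values were seen. It occurred in 7 clones in all, 4 at day 13 (6 cells) and 3 at day 19 (8 cells). The 3 Il17a-positive cells all lay in the 2 clones from which the combination was picked, and the other 5 clones, with 7 cells, had 0, so it gives no further case. The alpha CDR3s are shown because they were the same length, 45 bases, and differed at 2 positions only, given in capitals and counted from 1 at the first base.
Alpha CDR3 of 3 day-13 clones and 1 day-19 clone: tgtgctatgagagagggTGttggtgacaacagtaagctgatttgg
Alpha CDR3 of 2 day-19 clones: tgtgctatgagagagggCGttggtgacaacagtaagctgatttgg
Alpha CDR3 of 1 day-13 clone: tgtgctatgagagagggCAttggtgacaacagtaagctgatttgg
Beta CDR3 of the 2 day-19 clones of 4 and 2 cells: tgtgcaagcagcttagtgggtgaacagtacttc
Relative to the first alpha sequence, the second carried T18C and the third T18C and G19A. The clones of 4 and 2 cells at day 19 had identical alpha and beta sequences in contig sets 3 and 2, and only the clone of 4 held Il17a-positive cells (2 of 4, all 4 being CD4 cells). Il23r and Ccr6 were at 0 in all 14 cells with this combination, and Il1r1 was found in 1 of them.

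Innate-like receptor types were looked up in the same way. The TRAV1 TRAJ33 alpha chain of mucosal-associated invariant T cells occurred in 4 T cells at day 13 and 0 at day 19. Of the 4, all CD8 cells, 1 had Il17a, 1 Il23r, 1 Il1r1 and 2 Zbtb16. The TRAV11 TRAJ18 chain of invariant natural killer T cells occurred in 47 and 25 cells. None of them had Il17a, which allows 6.38% and 12%, while Zbtb16 was found in 25 of 47 and 10 of 25.

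Ccr6 was the most abundant of the 4 genes, and it was higher at day 19. It was detected in 536 T cells at day 13 (4.27%) and in 431 at day 19 (7.68%), and its summed level was 7.09 and 14.8 CPM. The log2 ratio was 1.06 (0.93 to 1.19). In the contig sets it stood at 6.06, 6.55, 7.25 and 8.61 CPM at day 13 and at 9.11, 10.9, 17.6 and 19.7 CPM at day 19. All day-19 sets were above all day-13 sets.

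Barcodes without CD3 UMIs also held Ccr6, in 37 of 1234 (3.0%) and 14 of 487 (2.87%), at 4.19 and 5.52 CPM. Thinned to 2000 UMIs, these shares were 1.62% and 1.44%, against 1.00% and 2.23% of T cells. The thinned share over all T cells at day 13 thus lay below that of barcodes without CD3, while the day-13 CPM lay above it, so no expression is read from that share. The thinned share of day 19 lay above it. Although CD3+ cells were sorted, barcodes without CD3 UMIs can include B and dendritic cells that carry Ccr6, so their share may not be background alone. Median depths were 8461 and 8156 UMIs without CD3.

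The day ratio was not the same in all coreceptor classes. In CD4 cells Ccr6 was higher at day 19, at 35.1 against 14.1 CPM (log2 ratio 1.32, 1.12 to 1.52), and in CD8 cells it was lower, at 1.15 against 2.69 CPM (-1.22, -1.79 to -0.68). Within CD4 cells the contig sets overlapped, at 11.6 to 22.1 CPM at day 13 and 21.6 to 42.3 CPM at day 19. Both CD8 levels lay below those of barcodes without CD3, so no expression in CD8 cells is read from them. CD4 over CD8 cells stood at 2.39 (2.11 to 2.68) at day 13 and 4.93 (4.43 to 5.46) at day 19. Barcodes with both coreceptors (8.42 and 18.5 CPM) and with neither (9.97 and 16.9 CPM) lay between CD8 and CD4 cells on both days.

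Within CD4 cells the day difference lay in those without a Foxp3 UMI. In CD4 Foxp3- cells Ccr6 went from 9.92 to 43.2 CPM (2.12, 1.84 to 2.41), and the share of cells with a UMI from 75 of 2254 (3.33%) to 127 of 913 (13.9%), or from 1.38% to 5.48% after thinning. The thinned share was thus below that of barcodes without CD3 at day 13 and above it at day 19. In CD4 Foxp3+ cells it stood at 21.8 and 26.4 CPM, with 93 of 653 (14.2%) and 78 of 472 (16.5%) positive. That log2 ratio, 0.28 (-0.02 to 0.58), did not exceed counting error. CD4 Foxp3+ over Foxp3- cells was 1.14 (0.81 to 1.46) at day 13 and -0.71 (-0.97 to -0.46) at day 19, so the order of the groups reversed between the days.

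The contig sets gave the same picture. In CD4 Foxp3- cells Ccr6 stood at 6.25, 10.0, 11.1 and 23.5 CPM in the day-13 sets and at 33.2, 46.7, 48.4 and 53.0 CPM in the day-19 sets, without overlap. In CD4 Foxp3+ cells the sets ranged from 18.4 to 31.2 CPM at day 13 and from 7.29 to 35.5 CPM at day 19, with overlap. A cell without a Foxp3 UMI can still be a regulatory T cell whose Foxp3 was missed at this depth.

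**Figure D4:**
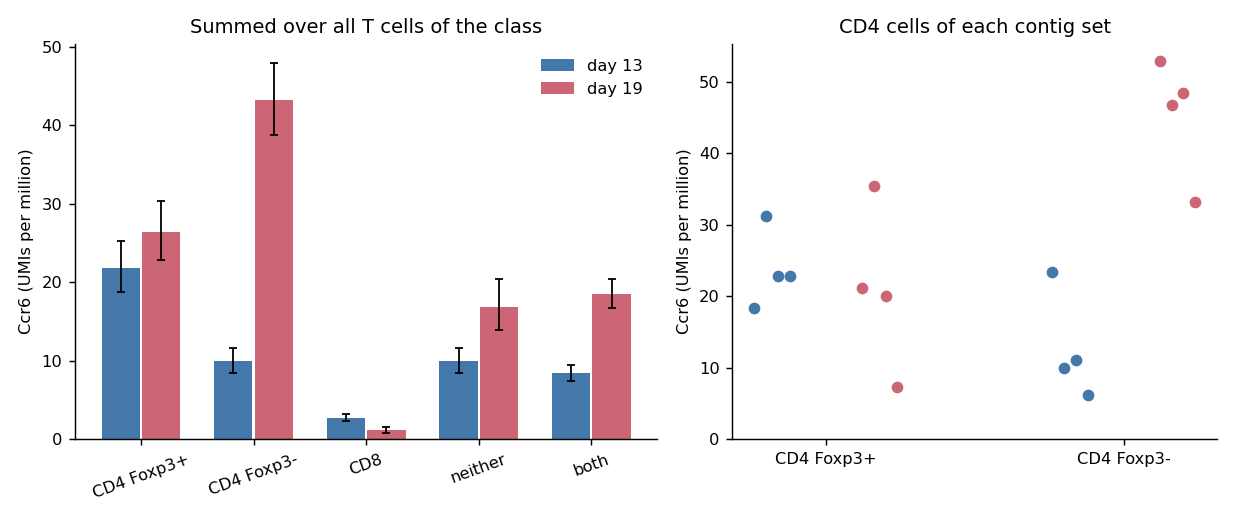
Ccr6 in CPM. On the left, sums over T cells by class and day with exact Poisson 95% intervals; on the right, each contig set (1 point) for CD4 cells with and without Foxp3 UMIs, by day. CD4 Foxp3- sets reach at most 23.5 at day 13 and at least 33.2 at day 19.

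Droplets with Ccr6 also held more RNA of dendritic cells. UMIs of 6 dendritic cell markers were found in 54.9% of Ccr6-positive against 17.4% of Ccr6-negative T cells at day 13 and in 45.2% against 22.5% at day 19, and in CD4 Foxp3- cells in 46.7% against 15.1% and 32.3% against 23.7%. The summed level of these markers in the CD4 Foxp3- cells was 906 against 221 CPM and 209 against 182 CPM. Ccr6-positive CD4 Foxp3- cells were also deeper, with medians of 10213 against 4316 gene UMIs and 12454 against 5867.5. The day ratio was therefore taken again in CD4 Foxp3- cells without any C1q, dendritic, macrophage, B or plasma cell marker UMI. There Ccr6 went from 7.47 to 51.8 CPM (2.79, 2.26 to 3.35), with 15 of 1224 cells (1.23%) and 28 of 342 (8.19%) positive. In CD4 Foxp3+ cells filtered the same way it stood at 46.4 and 32.8 CPM (-0.50, -1.34 to 0.27).

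Ccr6-positive cells were a mixed group. They were also deeper, with medians of 15142 against 5979 gene UMIs at day 13 and 17769 against 8301.5 at day 19, which bears on every share of cells with a UMI that follows. Foxp3 UMIs were found in 277 of 536 at day 13 (51.7%; negative cells 13.2%) and in 204 of 431 at day 19 (47.3%; 20.4%). Il17a was found in 28 and 3, and Il23r in 22 and 29. CD8 cells made up 18.7% and 5.80%, against 47.9% and 49.9% of negative cells. Contigs were present for 41.8% and 60.8%, against 66.3% and 77.0%, and C1q for 57.8% and 76.8%, against 33.6% and 50.8%.

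Of 13278 genes, 3.68% were at least 2-fold higher in Ccr6-positive than in Ccr6-negative T cells at day 13 and 2.29% lower, and of 12512 genes at day 19, 2.03% and 2.53%. Of 10 regulatory T cell genes, 6 were higher at day 13: Foxp3 (1.16), Il2ra (1.26), Ikzf4 (1.22), Tnfrsf4 (1.5), Tnfrsf9 (1.09) and Ccr8 (1.62). At day 19, 2 were higher, Tnfrsf4 (1.02) and Ccr8 (1.34), with Foxp3 at 0.57. Of the type 17 lists, Blk (2.41, and 4.19 without B or plasma cell barcodes) and Zbtb16 (1.08) among regulators, Il23r (3.12), Il1r1 (1.59) and the decoy receptor Il1r2 (1.41) among receptors, and Il17a (2.87) and Lif (1.43) among cytokines were higher at day 13. At day 19, Rora (1.08), Il23r (3.52), Il1r2 (1.53), Il17a (1.13), Lif (1.98), Il21 (2.05) and Il22 (4.30) were. Of these, Il17a rests on 18 UMIs, 17 of them in 2 barcodes with both coreceptors and with 173 and 144 C1q UMIs, and was at 0.14 (-1.06 to 1.18) without the first of these barcodes. Il22 rests on 54 UMIs, 48 of them in 1 cell, and was at 1.14 (-0.49 to 2.55) without it. Of gamma and delta receptor genes, 6 of 13 were lower at day 13, Tcrg-V5 within counting error, and 9 of 10 at day 19.

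The CD4 Foxp3- cells with and without Ccr6 were compared in the same way. Higher genes made up 3.32% of 10096 at day 13 and 1.93% of 9132 at day 19, and lower genes 4.35% and 3.39%. At day 13, Il17a (3.33), Lif (1.97) and Areg (1.33) of 5 cytokines tested were higher and Ifng (-1.32) was lower, and 5 of 9 genes of the gamma-delta-associated list were higher. Dendritic marker RNA was also higher in these Ccr6-positive cells, at 906 against 221 CPM. The Il17a ratio rests on few cells: 41 of 79 UMIs beside Ccr6 and 91 of 110 without it lay in 1 cell each. It was 2.28 (1.71 to 2.83) without the first of these cells and 5.86 (5.12 to 6.67) without the second. At day 19, Il17a had 0 UMIs in the Ccr6-positive and 9 in the Ccr6-negative cells, too few to tell their levels apart. Of the gamma-delta-associated list, 0 of 9 genes were higher then, with dendritic markers at 209 against 182 CPM. The part of dendritic RNA in these counts was not tested. Ifng was again lower (-1.44), and Il22 was higher (3.67) from 52 UMIs, 48 of them in 1 cell.

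Homing genes of these cells were counted in the same way. Ccr7, the receptor for entry to lymph nodes, was higher beside Ccr6 on both days (2.09 and 1.83), as was Ccr8 (2.64 and 1.24). Mature dendritic cells also express Ccr7, and dendritic marker RNA was higher in the same cells, at 906 against 221 CPM at day 13 and 209 against 182 CPM at day 19, whose part in these ratios was not tested. At day 19, 4 of 10 were lower, among them S1pr1 (-1.61), a gene of circulating cells, and the chemokine receptors Cxcr6 (-2.02) and Ccr4 (-1.19). At day 13, S1pr1 (-1.04) was lower, and Itgae, at -1.15 (-3.05 to 0.24), was within counting error. Of 9 regulatory T cell genes tested, Il2ra, Tnfrsf4, Tnfrsf9 and Ccr8 were higher beside Ccr6 at day 13 and none lower. At day 19, Ccr8 was higher. Il10, the suppressive cytokine, was lower then (-3.35, -6.43 to -1.45), from 2 UMIs in the positive cells. As said above, regulatory T cells whose Foxp3 was missed can be among these cells.

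By likeness, the genes ranked highest for Ccr6 were Prm2 (5.13 and 4.91), Agr3 (4.49 and 4.79), Il22 (3.61 and 4.30), Dthd1 and Plekhs1. Each came from few cells: Il22 was found in 8 of 536 and 3 of 431 Ccr6-positive cells, and Agr3 in 13 and 32.

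Clones of Ccr6-positive CD4 cells differed with Foxp3 at day 19, while at day 13 the intervals of the Ccr6-positive groups overlapped. At day 19, 54 of 83 Ccr6-positive CD4 Foxp3- cells with a clone (65.1%, 53.8 to 75.2) were in clones of at least 2 cells, against 230 of 487 Ccr6-negative ones (47.2%). At day 13 it was 11 of 31 (35.5%, 19.2 to 54.6) against 209 of 1034 (20.2%). In CD4 Foxp3+ cells it was 8 of 33 (24.2%, 11.1 to 42.3) against 84 of 188 (44.7%) at day 19, and 5 of 26 (19.2%, 6.55 to 39.4) against 31 of 222 (14.0%) at day 13. The 83 cells came from 59 clones. The clone with the most of them (TRAV7-3 TRAJ31, TRBV19 TRBJ2-5, set 2) had 11 cells, 8 with Ccr6 and 0 with Il17a, Il23r or Foxp3. Cells of 1 clone share their origin, so these shares do not count independent cells.

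Il23r was found in 50 T cells at day 13 (0.399%) and in 44 at day 19 (0.784%), at 0.461 and 0.774 CPM. The log2 ratio was 0.75 (0.19 to 1.30), and without day-19 set 2 it was 0.57 (-0.06 to 1.19), within counting error. The sets overlapped, at 0.246 to 0.659 CPM at day 13 and 0.562 to 1.01 CPM at day 19. After thinning, 10 cells (0.0797%) and 4 cells (0.0713%) remained, an order opposite to that of the CPM, so none is read from the share. Barcodes without CD3 had it in 2 of 1234 (0.162%) and 0 of 487.

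By class, Il23r was higher at day 19 in CD4 cells, at 1.40 against 0.563 CPM (1.32, 0.26 to 2.43), and in CD4 Foxp3- cells (1.68, 0.33 to 3.14). These rest on 22 against 13 and on 14 against 8 UMIs. The contig sets of the days overlapped in both, at 0 to 1.05 and 0 to 1.80 CPM in CD4 cells and at 0 to 1.03 and 0 to 2.60 CPM in CD4 Foxp3- cells. In CD8 cells it stood at 0.264 and 0.297 CPM. CD4 over CD8 cells was 1.09 (-0.10 to 2.27) at day 13, within counting error, and 2.24 (1.06 to 3.54) at day 19. In T cells without C1q, dendritic, macrophage, B or plasma cell UMIs the day ratio was 1.67 (0.45 to 2.94), from 11 and 15 UMIs. Most positive cells, 42 of 50 and 33 of 44, held a single Il23r UMI, and they were deep, with medians of 15038 and 15985 gene UMIs against 6105 and 8723.

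Il23r-positive cells had Ccr6 in 22 of 50 (44.0%; negative cells 4.12%) and 29 of 44 (65.9%; 7.22%). Il17a was found in 10 and 2, Foxp3 in 11 and 18, Tcrg-C1 in 9 and 1, and Trdc in 0 and 1. C1q UMIs were present in 54.0% (negative cells 34.5%) and 72.7% (52.6%). Among the 5 genes ranked highest by likeness were Zbtb16 (3.79 and 3.72), Csf2 (2.49 and 2.60), which encodes the cytokine GM-CSF, Scin and Tff1. The Csf2 ratio rests on few cells, since 8 of 13 UMIs at day 13 and 45 of 49 at day 19 lay in 1 cell each. Tff1, a secreted trefoil peptide, was found in 5 of 50 positive cells at day 13 and in 24 of 44 at day 19.

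Il1r1 was found in 60 T cells at day 13 (0.478%, 0.555 CPM) and in 28 at day 19 (0.499%, 0.462 CPM). The log2 ratio, -0.27 (-0.90 to 0.34), was within counting error, and the sets overlapped at 0.379 to 1.11 and 0.30 to 1.12 CPM. Barcodes without CD3 had it in 4 of 1234 (0.324%) and 4 of 487 (0.821%). The day-19 share in T cells was below the latter, so no expression is read from it. Although CD3+ cells were sorted, barcodes without CD3 UMIs can include endothelial cells and may not be background alone.

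In CD4 cells Il1r1 stood at 0.866 and 0.637 CPM and in CD8 cells at 0.264 and 0.297 CPM. CD4 over CD8 cells was 1.72 (0.68 to 2.79) at day 13 and 1.10 (-0.35 to 2.58) at day 19. Il17a was found in 9 of 60 Il1r1-positive cells and in 1 of 28, and Ccr6 in 11 and 9. Endothelial or stromal marker UMIs were found in 24 of 60 (40.0%; negative cells 18.6%) and 14 of 28 (50%; 19.9%), and endothelial cells are known to express Il1r1. Il1r1-positive cells were also deeper, with medians of 14842 against 6104 gene UMIs and 30828 against 8734, and a marker is found more often in deeper cells. The likeness ranking for Il1r1 held 4 genes that endothelial cells express, Igfbp3, Cldn5, Tm4sf1 and Vwf, from 1 to 3 cells each. Their part in the Il1r1 level was not tested.

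**Figure D5:**
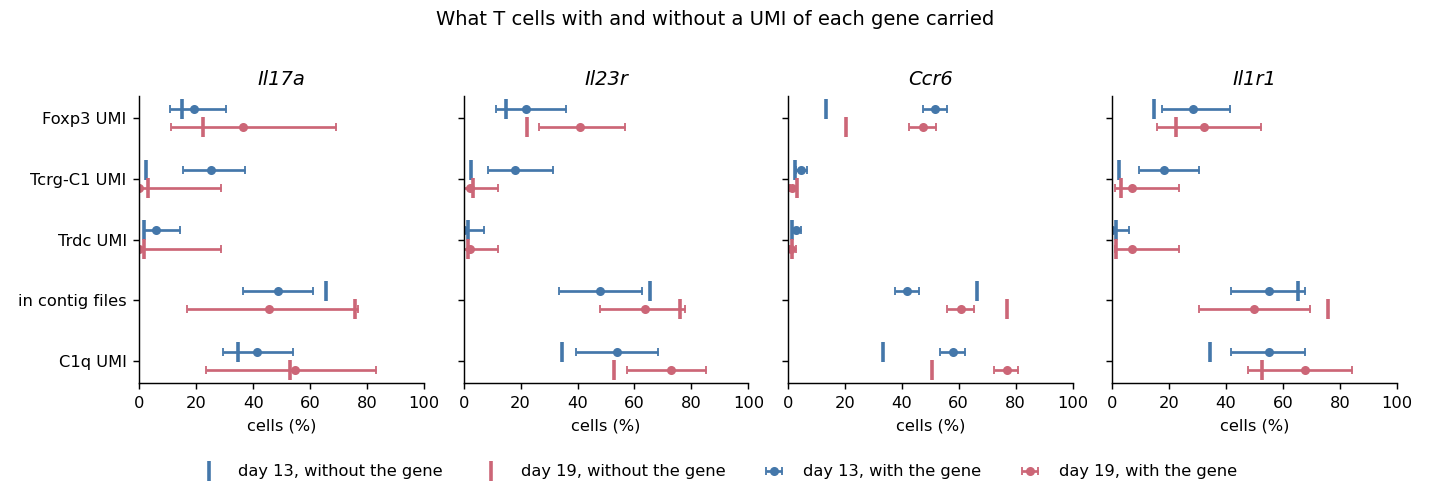
Percent of T cells with a UMI of each gene (points, exact binomial 95% intervals) and without one (vertical ticks) that carried each feature on the vertical axis, in blue for day 13 and red for day 19. Foxp3 is more frequent in Ccr6-positive than in Ccr6-negative cells on both days, at 51.7% against 13.2% and 47.3% against 20.4%.

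Most T cells with any of the 4 genes had only 1 of them, although Il23r-positive cells often had Ccr6, as given above. At day 13, 575 T cells had 1 of them, 51 had 2, 11 had 3 and 1 had all 4, and at day 19 the counts were 434, 35, 2 and 1. At day 13 Foxp3 was more frequent in cells with 1 of the genes (50.4%) than in the 63 with at least 2 (22.2%, 12.7 to 34.5). At day 19, 47.2% and 39.5% of 38 (24.0 to 56.6) were within counting error. Depth went along, with medians of 5962, 14792 and 12287 gene UMIs for 0, 1 and at least 2 genes at day 13 and 8280, 18076 and 17949 at day 19.

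Between the days, 3.16% of 14042 genes were at least 2-fold higher at day 19 and 2.34% lower, with a median log2 ratio of 0.00. Of 9 type 17 cytokines, Il22 (2.36), Il21 (2.38) and Csf2 (1.70) were higher and Il17a and Il17f (-1.63) lower. Of the 71 Il22 UMIs at day 19, 70 lay in 5 cells. Of 11 regulators and of 12 receptors, 0 passed 2-fold. Of 10 homing genes, Ccr6 and Ccr8 (1.49) were higher, and of 13 gamma and delta receptor genes, Trdv1 (-1.13), Trdv4 (-1.19) and Tcrg-V6 (-1.35) were lower.

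Antibody tags were compared by the share of all pairs of a positive and a negative cell in which the tag was higher in the positive cell, 50% meaning no separation. The IL23R tag was not higher in Il23r-positive cells, at 39.9% of pairs at day 13 and 43.3% at day 19. The IgG1 tag, named for an antibody isotype, gave 36.2% and 42.4% in the same cells. Unscaled medians of the IL23R tag ran the other way, at 41.5 against 39 and 21.5 against 20 tag UMIs. Those of IgG1 were 11 against 12 and 6 against 6. No direction is thus read from the IL23R tag. The 2 tags for the gamma-delta receptor gave 50% and 48.1% for Il17a-positive cells at day 13, and 31.4% and 41.0% for the 11 such cells at day 19, where IgG1 gave 37.6%. The CD4 tag, as a control, was higher in the CD4 cell in 68.7% of pairs of a CD4 and a CD8 cell at day 13 and in 75.3% at day 19. For cells with at least 2 Trdc UMIs against none, the gamma-delta receptor tags gave 49.6% and 49.3% at day 13 and 52.5% and 48.2% at day 19, so they did not separate those cells. The CD4 tag was higher in Ccr6-positive cells in 57.3% and 68.4% of pairs.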

How the data were processed

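Gene expression, antibody tag and TCR libraries of 1 capture per day were used. Per the file headers, Cell Ranger 4 wrote the deposited matrices, which give raw counts of UMIs for each feature and for all barcodes. The submitters' processing notes name Cell Ranger 4.0.0, STAR 2.7.5c and mm10. The deposited contig tables list productive receptor contigs with UMI counts. All other steps were run here with Python 3.11.15, numpy 2.4.6, scipy 1.17.1 and pandas 2.3.3.

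UMIs were summed per group of cells and given per 1000000 gene UMIs. The sums over T cells were 127848313 gene UMIs for day 13 and 73656914 for day 19. Cells and droplets were not clustered and no doublet caller was run, so barcodes with both coreceptors or with C1q can be doublets, and 106 barcode sequences occurred among the T cells of both days. Intervals are exact and at 95%. A sum of 0 was set to 3 counts, and cells were thinned by seeded random draws. On simulated counts for 14042 genes between the days, 95.0% of intervals contained the value used to simulate. They excluded 0 with the right sign for 99.0% of 102 genes changed by 1 and 100% of 98 changed by 2 on the log2 scale. The simulated counts were Poisson draws, which the intervals assume, so coverage near 95% was built in. Clumping of UMIs within cells was left out of the simulation and is not covered by the intervals.

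A gene called higher needed at least 50 UMIs in both sums together, a 2-fold difference and at least 3 UMIs in the first sum, and a gene called lower at least 3 in the second. This rule replaced an earlier one without the minimum of 3 after its calls were seen. The genes named were the 4 genes, genes of the pathway lists with at least 20 UMIs, the 5 genes most like each of the 4 with at least 30 UMIs in positive cells, and the 3 largest clones with Il17a. Others were named after their values were seen. These were the receptor combinations beyond the largest clones, the AGGTCA search, the splits by Ccr6, the splits by Foxp3 for Ccr6 clones and levels, and those by other cells' markers. The 4 genes and the lists were chosen with earlier results of these data known. Some genes of these lists and rankings are not reported here by name, and counts over the lists include them. Cd163l1, a scavenger receptor gene, was left out of the counts of gamma and delta receptor genes after its values were seen. No antibody against CCR6 was in the panel.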

Additional observations from a re-analysis of the deposited data

How the results depend on the processing

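No paired analysis was possible because each day is 1 capture and no label maps its cells or its 4 multiplexing tags to replicates. Of 358 recomputed values, 278 stayed within the interval of the main value (counts of genes within 1.5 times), and no log2 day ratio beyond counting error changed sign, although the thinned shares of Il23r had the opposite order. The log2 day ratio of Il17a was -1.61 with a minimum of 5000 UMIs, -2.65 without C1q-positive barcodes, -3.98 in contig files only, -1.52 without B or plasma cell barcodes, -2.74 without myeloid or B cell UMIs, -2.64 without the top barcode of each day, -1.47 for shares and -2.69 after thinning. Leaving out a contig set gave -2.24 to -1.58, the latter without day-13 set 2. In CD4 over CD8 cells at day 13, Il17a turned from 1.23 to -0.34 without the 2 CD4 cells with the most Il17a. The day ratio of Ccr6 was 0.80 without C1q, 1.21 in contig files, 1.21 without B or plasma cell barcodes, 1.29 without myeloid or B cell UMIs, 0.85 for shares, 1.37 after thinning, and 0.87 (without day-19 set 2) to 1.14 leaving out a set. In CD4 Foxp3- cells it was 2.46 without C1q, 2.79 without myeloid or B cell UMIs, and 2.04 to 2.38 leaving out a set. In CD4 Foxp3+ cells it was -0.45 without C1q, -0.028 in contig files, -0.060 without endothelial or stromal barcodes, -0.50 without myeloid or B cell UMIs, and 0.06 to 0.47 leaving out a set. For Il1r1 it was -2.65 after thinning, from 12 cells and 1 cell. That of Il23r was 1.67 without myeloid or B cell UMIs and 0.57 (-0.06 to 1.19, without day-19 set 2) to 0.81 leaving out a set.

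Shares of positive T cells moved with depth. With a minimum of 5000 UMIs, Il23r was at 0.547% and Il1r1 at 0.662% (day 13), and Ccr6 at 5.87% and 9.16%. Without C1q, Il23r was at 0.280% and 0.453%, Ccr6 at 2.76% and 3.78%, and Il1r1 at 0.329% (day 13). In contig files, Il17a was at 0.403% and Il23r at 0.293% (day 13), Ccr6 at 2.74% and 6.17%, and Il1r1 at 0.330% (day 19). Without endothelial or stromal barcodes, Ccr6 was at 3.70% and 6.51% and Il1r1 at 0.353% and 0.312%. Without B or plasma cell barcodes, Il17a was at 0.403% and Ccr6 at 3.72% (day 13). Without the deepest 5%, Ccr6 was at 3.49% and 6.57%. At 2 or more UMIs, Il23r was at 0.0638% and 0.196%, Ccr6 at 1.41% and 4.08%, and Il1r1 at 0.0797% and 0.0713%. Thinned, Il17a was at 0.319% (day 13), Il23r at 0.0797% and 0.0713%, Ccr6 at 1.00% and 2.23%, and Il1r1 at 0.0957% and 0.0178%. Leaving out a set, Ccr6 at day 13 was at 4.41% to 4.78%. Of Il17a-positive cells, 10.6% lacked both coreceptors at day 13 with a minimum of 5000 UMIs, 28.6% to 46.2% were in contig files at day 13 leaving out a set (lowest without set 2), and 80.0% were at day 19 without C1q. Leaving out a set removes only cells in contig files, so that share falls by construction. Without the minimum of 3 UMIs, 2269 and 3811 genes were higher in Il17a-positive cells at days 13 and 19, against 516 and 516. The cause of the other moves was not tested. Settings with B, plasma, endothelial, stromal or myeloid markers, the call rule, the Foxp3 splits and single cells left out were added after seeing the data.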
